A study of Mus musculus with 24 samples.

Results

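The adult globin genes make the protein chains of haemoglobin, and their RNA was followed here in mouse bone marrow from ground control and space-flown mice, wild type (WT) or lacking Nrf2. The rule named 5 genes, the adult alpha globins Hba-a1 and Hba-a2, the adult beta globins Hbb-bs and Hbb-bt, and Ahsp, and took each from the table by the symbol that the GENCODE M21 annotation gives to its Ensembl identifier. It found 4 of them among the 54752 genes of the table. Ahsp, the chaperone that holds free alpha globin, matched no row by this rule and was not analysed here.

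The 24 libraries, 1 per mouse, formed 4 groups of 6. GC-WT mice were wild type and stayed on the ground, FL-WT mice were wild type and spent 31 days on the International Space Station, and GC-KO and FL-KO mice were the corresponding Nrf2 knockout (Nrf2-KO) groups. All were male, young adult, singly housed mice of C57BL/6 background, and the knockout was in the whole animal. Marrow of flight mice was taken after landing in the United States and that of ground mice in Japan, and all cells had been frozen before RNA extraction, so the place of sampling cannot be told apart from flight. Nfe2l2, which encodes Nrf2, was at 3.6 to 7.18 TPM (transcript abundance per length, scaled to the same total in each library) in the 6 GC-KO libraries and 2.22 to 4.31 TPM in the 6 of FL-KO, against 17.05 to 26.06 TPM on the ground and 11.39 to 27.26 TPM in flight for WT.

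Haemoglobin is built from equal numbers of alpha and beta chains, each holding a haem group. Red cell precursors in the marrow raise globin transcription as they mature, under factors such as Gata1 and Klf1, and the reticulocyte keeps its globin mRNA after it has lost its nucleus. Free alpha chains precipitate and damage the cell, which is why the balance of alpha and beta RNA is of interest, and why the haem-sensing kinase Eif2ak1 and the ubiquitin ligase Ube2o are placed among the controls of globin protein. In the mouse the adult alpha chain comes from a pair of near-identical genes, as does the adult beta chain.

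The alpha genes lie on chromosome 11 of GRCm38 on the plus strand, Hba-a1 (ENSMUSG00000069919.7) at 32283511 to 32284465 and Hba-a2 (ENSMUSG00000069917.7) at 32296489 to 32297298. The beta genes lie on chromosome 7 on the minus strand, Hbb-bs (ENSMUSG00000052305.6) at 103826534 to 103828096 and Hbb-bt (ENSMUSG00000073940.3) at 103812524 to 103813996. The copies of a pair are almost the same in the part that is translated. Hba-a1 and Hba-a2 differed at 1 of 429 coding bases, C381T, and Hbb-bs and Hbb-bt at 1 of 444, C417T, with positions counted from the first base of the start codon and the base of Hba-a1 or of Hbb-bs given first. The 40 coding bases around each difference are shown because only reads that cover it, or the untranslated ends, can be assigned to a single copy. The capital marks the base that differs (GENCODE M21 transcripts).
Hba-a1: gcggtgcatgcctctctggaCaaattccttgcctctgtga
Hba-a2: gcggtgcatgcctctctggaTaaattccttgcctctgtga
Hbb-bs: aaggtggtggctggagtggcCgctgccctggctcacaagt
Hbb-bt: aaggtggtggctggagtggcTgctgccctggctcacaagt

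Of all stretches of 100 bases in the Hba-a2 transcript, 74.5% were also present in Hba-a1, and 56.5% of those of Hba-a1 were present in Hba-a2. For the beta pair the shares were 62.6% of Hbb-bs and 54.8% of Hbb-bt. No stretch of 50 bases was shared by Hba-a2 and Hbb-bs. The level of a single copy therefore rests partly on how RSEM shared reads between the copies. The sums of the alpha pair and of the beta pair keep the shared reads within the pair. They still move somewhat with the sharing, because the copies differ in transcript length and TPM is per length. Annotated transcript length also enters each TPM value, at 699 nt for Hba-a1, 554 nt for Hba-a2, 628 nt for Hbb-bs and 703 nt for Hbb-bt.

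Promoter sequence is shown as a description of the 4 genes, and its part in their levels was not tested. In the 110 bases before the RefSeq start (GRCm38.p6), each of the 4 genes held a CCAAT box, a CACCC box and the TATA-type letters TATAA. Searched on both strands, these motifs were in 20.2%, 29.6% and 10.9% of 32851 mouse promoters of that length, and all 3 together in 0.554%. The 30 bases around the CCAAT box are printed 5′ to 3′ on the gene's strand, with CCAAT, its reverse complement ATTGG and CACCC in capitals. They span chr11:32283567-32283596 for Hba-a1, chr11:32296384-32296413 for Hba-a2, chr7:103827992-103828021 for Hbb-bs and chr7:103813986-103814015 for Hbb-bt.
Hba-a1: gagcaagcacaaaccagCCAATgagaactg
Hba-a2: gagcaagcacaaaccagCCAATgagaactg
Hbb-bs: ccaCACCCtggtaagggCCAATctgctcac
Hbb-bt: taaCACCCtggcATTGGCCAATctgctcag

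Aligned without gaps, the alpha promoters were identical at 107 of 107 bases before the start and the beta promoters at 80 of 109. Both alpha promoters carry the CACCC box downstream of the printed stretch, and Hbb-bt holds a reversed CCAAT box next to the first.

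Globin RNA made up a large part of these libraries, though less than small structural RNAs did. The 4 genes together held 8.62% to 24.3% of all TPM, with a median of 18.8% over the 24 libraries. A further 5 small structural RNAs (Rn7s1, Rn7s2, Rn7sk, Rpph1 and Rmrp) held 35.4% to 59.6% of all TPM, with a median of 47.0%, which lowers every other value. TPM carries no read number, so the depth behind each value is unknown. Of 7 erythroid markers, among them Alas2, Slc4a1 and Klf1, 0 were at 0 in all libraries, and their summed level was 855 to 1851 TPM for GC-WT, 669 to 1139 TPM for FL-WT, 1226 to 2064 TPM for GC-KO and 689 to 1089 TPM for FL-KO. This sum is weighted to the most abundant markers. Mean Alas2 was 640 TPM in GC-WT and 795 TPM in GC-KO mice, but Slc4a1 was 438 and 328 TPM and Klf1 52.4 and 38.6 TPM. In GC-KO vs. GC-WT the median log2 fold change of the 7 markers was -0.15, against -0.22 for all tested genes. GC-WT mouse 05 stood lowest for all 4 globins, with 8.62% of TPM in globins and 58.2% in the small RNAs, and results that rest on it are also given without it. The summed level of 4 mature neutrophil markers was 24145 to 48565 TPM for GC-WT, 38988 to 54189 TPM for FL-WT, 37102 to 57125 TPM for GC-KO and 45216 to 61715 TPM for FL-KO, and its part in the results was not tested.

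Levels of the 4 genes fell in nearly one order. Hba-a1 ranked below Hbb-bs and Hba-a2, and Hbb-bt lowest, in 24 of 24 libraries. Over all libraries the level of Hbb-bt ran from 6214 to 21158 TPM with a median of 13759 TPM, and that of Hba-a1 from 22382 to 54799 TPM with a median of 42830 TPM. Hba-a2 ran from 29963 to 75152 TPM with a median of 61220 TPM, and Hbb-bs from 27605 to 91575 TPM with a median of 67919 TPM. The order of these highest genes depended on the group. Hba-a2 was above Hbb-bs in 5 of 6 GC-WT mice and 3 of 6 FL-WT mice, but in 0 of 6 GC-KO and 0 of 6 FL-KO mice. These comparisons of levels between genes are on the TPM scale, which is per transcript length.

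**Figure D1:**
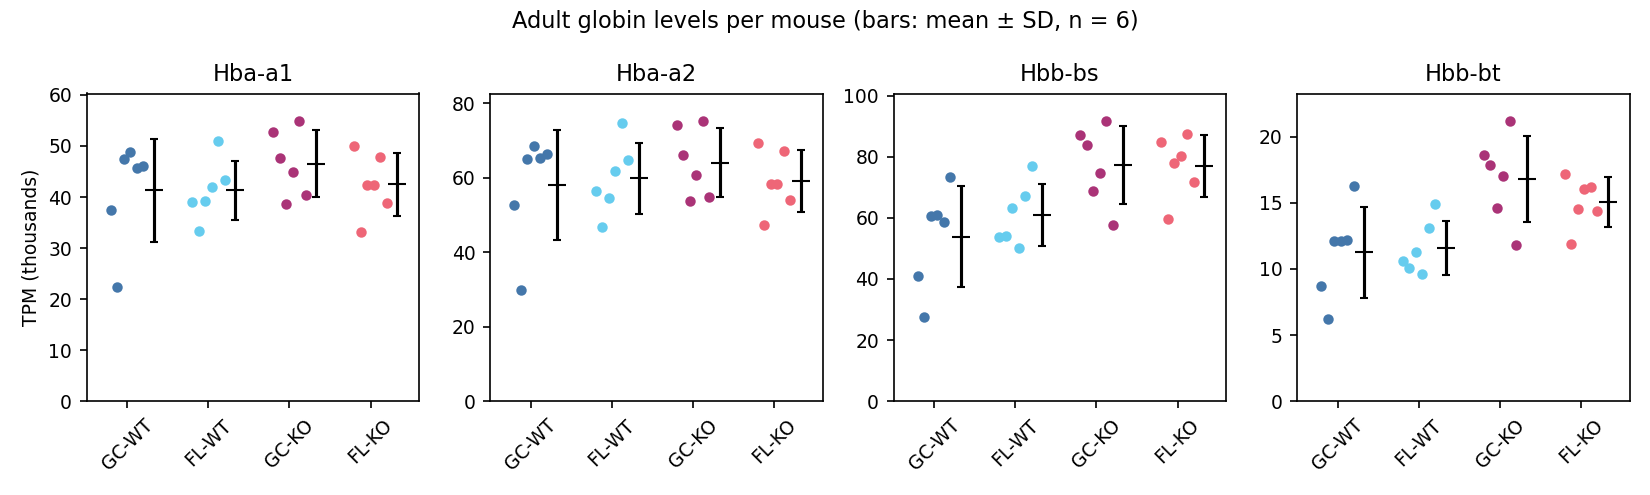
Level of each adult globin gene in TPM divided by 1000 (y axis, from 0) for each mouse (points) in the 4 groups (x axis), with bars for the mean ± SD of 6 mice. The means of Hbb-bs and Hbb-bt are higher in Nrf2-KO than in WT mice, with overlap of single mice. The lowest point in each panel is GC-WT mouse 05.

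The first question was whether flight moved globin RNA. In WT mice, Hba-a1 was at 22382 to 48816 TPM on the ground (median 45860) and 33246 to 50953 TPM in flight (median 40621). Hba-a2 was at 29963 to 68561 TPM on the ground (median 65166) and 46789 to 74664 TPM in flight (median 59121). The ranges of flight and ground mice overlapped widely for both alpha genes. For the beta genes, Hbb-bs was at 27605 to 73510 TPM on the ground (median 59706) and 50155 to 77005 TPM in flight (median 58714). Hbb-bt was at 6214 to 16253 TPM on the ground (median 12129) and 9650 to 14886 TPM in flight (median 10928), again with overlapping ranges.

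By limma on log2(TPM + 1), 0 of 4 globins were differentially expressed genes (DEGs; Benjamini-Hochberg adjusted p under 0.1 over all tested genes and a fold change of at least 2) in FL-WT vs. GC-WT, where 1.0% of 12373 tested genes were. With no minimum fold change 0 of 4 were higher (0.994% of tested genes) and 0 of 4 lower (39.0%). An unadjusted p under 0.05 was found for 0 of 4, against 42.8% of tested genes in either direction, nearly all of them lower. Their log2 fold changes on that scale ran from 0.03 for Hba-a1 (SE 0.16, adjusted p = 0.877) to 0.23 for Hbb-bs (SE 0.18, adjusted p = 0.308), while the median of all tested genes was -0.24. Without GC-WT mouse 05, Hba-a1, Hba-a2 and Hbb-bt were at -0.13, -0.10 and -0.07 instead, so no direction can be given. Under median-of-ratios scaling, which brings the median of all genes to 0.00, the 4 values were 0.39, 0.43, 0.58 and 0.44 for Hba-a1, Hba-a2, Hbb-bs and Hbb-bt, with adjusted p from 0.0335 to 0.0963 from limma and fold changes under 2. With no minimum fold change, 17.4% of tested genes were higher under that scaling.

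In Nrf2-KO mice, Hba-a1 was at 38614 to 54799 TPM on the ground (median 46297) and 33220 to 50055 TPM in flight (median 42385), and Hba-a2 at 53683 to 75152 TPM (median 63402) and 47328 to 69471 TPM (median 58433). Hbb-bs was at 57615 to 91575 TPM on the ground (median 79361) and 59739 to 87487 TPM in flight (median 79021), and Hbb-bt at 11840 to 21158 TPM (median 17425) and 11868 to 17215 TPM (median 15294). Flight and ground ranges overlapped for each gene. In FL-KO vs. GC-KO 0 of 4 globins were DEGs, against 2.13% of tested genes. With no minimum fold change 0 of 4 were higher (0.299% of tested genes) and 0 of 4 lower (53.1%), and 0 of 4 had an unadjusted p under 0.05, against 52.5% of tested genes in either direction. Their log2 fold changes were between -0.15 and 0.00, above a median of -0.29 for all genes, and all 4 turned positive under median-of-ratios scaling (0.29 to 0.44), with Hbb-bs at an adjusted p of 0.0939 from limma, where 18.1% of tested genes were higher. The interaction of flight and genotype called 0 of 4 globins (0.0162% of tested genes), with estimates from -0.24 to -0.17 and SE from 0.22 to 0.25.

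Genotype moved the beta genes. On the ground, Hbb-bs was 1.49-fold higher in GC-KO than in wild type mice (log2 0.57 ± 0.18 SE, limma adjusted p = 0.0114), and Hbb-bt 1.54-fold higher (log2 0.62 ± 0.17 SE, limma adjusted p = 0.00664). For Hbb-bs, 4 of 6 GC-KO mice were above the highest GC-WT mouse, and the same was true of 4 of 6 for Hbb-bt. The exact two-sided permutation test on these genes alone gave p = 0.0260 and p = 0.0195 (n = 6 each). Hba-a1 and Hba-a2 were at 0.21 (SE 0.16, limma adjusted p = 0.310) and 0.18 (SE 0.16, limma adjusted p = 0.395). No globin reached the 2-fold change of a DEG, a rule that 3.17% of tested genes met. With no minimum fold change, 2 of 4 globins were higher in GC-KO mice, against 3.13% of tested genes. Without GC-WT mouse 05 the changes of Hbb-bs and Hbb-bt were 0.40 and 0.46 (adjusted p = 0.0392 and 0.0236 from limma). Under median-of-ratios scaling all 4 globins passed with no minimum fold change, Hba-a1 and Hba-a2 at 0.57 and 0.54 and Hbb-bs and Hbb-bt at 0.93 and 0.98, where 29.8% of tested genes passed in that direction. The call of the alpha genes thus depends on the scaling.

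In flight the beta genes again stood higher in Nrf2-KO mice, by less. Hbb-bs was 1.27-fold higher in FL-KO than in FL-WT mice (log2 0.34 ± 0.18 SE, limma adjusted p = 0.121) and Hbb-bt 1.3-fold (log2 0.38 ± 0.17 SE, limma adjusted p = 0.0794). For Hbb-bs 4 of 6 FL-KO mice were above the highest FL-WT mouse, and for Hbb-bt 3 of 6, with p = 0.0260 and p = 0.0195 by the exact two-sided permutation test (n = 6 each). Hba-a1 and Hba-a2 were at 0.04 and -0.01. No globin was a DEG, against 8.45% of tested genes, and 1 of 4 passed with no minimum fold change, against 1.91% that were higher. Hbb-bt lost that call in 8 of the 12 runs that each left out 1 library, with limma adjusted p up to 0.170. It also lost it with no filter on low values (adjusted p = 0.381, limma). Without the 5 small RNAs, Hbb-bs and Hbb-bt were at 0.43 and 0.47 (adjusted p = 0.0101 and 0.00418, limma). In that setting 850 of 14383 tested genes were higher with no minimum fold change. Under median-of-ratios scaling the 4 were at 0.48, 0.43, 0.79 and 0.83, and all passed with no minimum fold change, as did 35.2% of tested genes in that direction.

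Fold changes of genes at 5 TPM or more on average differed by transcript length in all 4 comparisons between groups, and by GC content in all but FL-WT vs. GC-WT. In GC-KO vs. GC-WT, genes under 1000 nt had a median log2 fold change of 0.10 and longer ones of -0.30, and genes with a GC content of 55% or more a median of -0.48 against -0.34 at 50 to 55%. The globins are short, and the alpha transcripts (57.2% and 56.9% GC) are richer in GC than the beta transcripts (51.3% and 50.8%). After these trends were taken out of each library, Hbb-bs and Hbb-bt were at 0.43 and 0.50 on the ground (adjusted p = 0.0422 and 0.0167 from limma) and at 0.33 and 0.39 in flight (adjusted p = 0.0992 and 0.0448 from limma), where 31.3% and 42.4% of tested genes were higher with no minimum fold change.

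The ratio of summed alpha to summed beta RNA is free of scaling between libraries, and it differed between genotypes. In GC-WT mice it ran from 1.25 to 1.81 with a median of 1.56, and in FL-WT mice from 1.17 to 1.73 with a median of 1.37. The ratio in GC-KO mice ran from 1.11 to 1.37 with a median of 1.15, and in FL-KO mice from 1.05 to 1.17 with a median of 1.1. In TPM, WT mice thus had more alpha than beta RNA by a wide and variable margin, and Nrf2-KO mice lay closer to 1. The ratio is not free of trends with GC content. With those and the length trends removed, the medians were 1.46 for GC-WT, 1.33 for FL-WT, 1.18 for GC-KO and 1.21 for FL-KO. The means before trend removal were 1.55 ± 0.178 for GC-WT, 1.41 ± 0.219 for FL-WT, 1.18 ± 0.0972 for GC-KO and 1.1 ± 0.0422 for FL-KO (SD, n = 6 each).

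**Figure D2:**
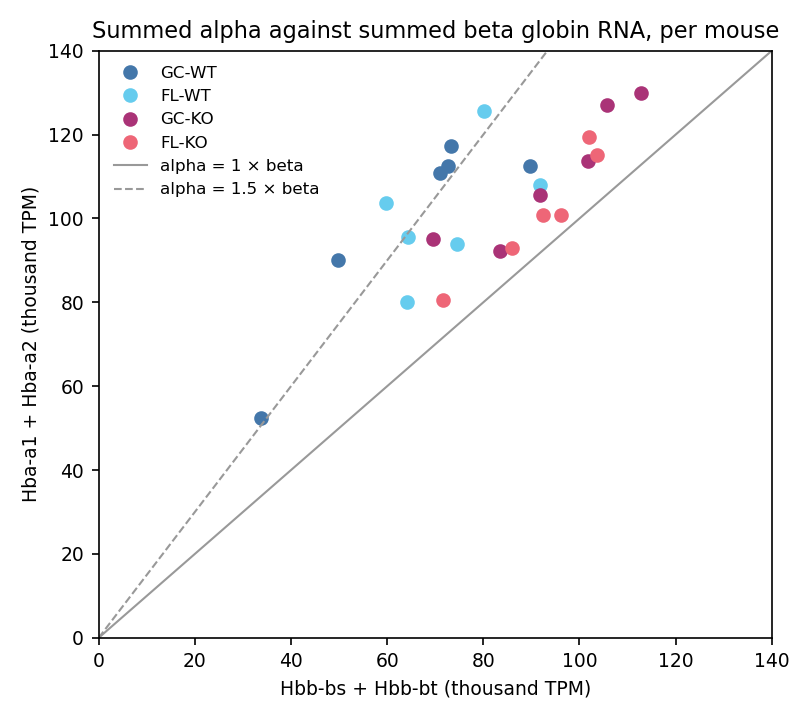
Sum of Hba-a1 and Hba-a2 (y axis) against the sum of Hbb-bs and Hbb-bt (x axis), both in TPM divided by 1000, 1 point per mouse, with lines where alpha equals beta and where it is 1.5 times beta. Nrf2-KO mice lie nearer the lower line than most WT mice at like alpha levels.

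In GC-KO vs. GC-WT the alpha to beta ratio fell by 0.39 on the log2 scale (SE 0.08, adjusted p = 0.00962 over 20 ratio tests, exact two-sided permutation test), to 0.764 of the WT value. Of the GC-KO mice, 5 of 6 were below the lowest GC-WT mouse, which was mouse 10. In FL-KO vs. FL-WT it fell by 0.34 (SE 0.09, adjusted p = 0.00618, exact permutation test), to 0.790 of the WT value, and all 6 FL-KO mice were below the lowest FL-WT mouse. The alpha sums on the ground were 99297 ± 24886 TPM for GC-WT and 110628 ± 15825 TPM for GC-KO (SD, n = 6 each), whereas the beta sums were 65052 ± 19898 and 94139 ± 15925 TPM. The flight groups had alpha sums of 101130 ± 15373 TPM in FL-WT and 101647 ± 14325 TPM in FL-KO mice, and beta sums of 72487 ± 12128 and 91998 ± 11893 TPM (SD, n = 6 each).

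With any single library left out, both differences between genotypes remained past the threshold, between -0.45 and -0.34 on the ground and between -0.39 and -0.28 in flight. After removal of the trends with GC content and length, the ground difference was -0.27 (adjusted p = 0.0108, exact permutation test) and the flight difference -0.16 (adjusted p = 0.170, exact permutation test). The flight effect on the ratio did not pass the threshold in either genotype. FL-WT vs. GC-WT gave a difference of -0.14 (SE 0.11, adjusted p = 0.265) and FL-KO vs. GC-KO of -0.10 (SE 0.05, adjusted p = 0.0835), both by exact permutation tests. In FL-KO vs. GC-KO, leaving out GC-KO mouse 04 or FL-KO mouse 01 brought the adjusted p to 0.04 or 0.0433. The interaction of flight and genotype was 0.05 (SE 0.13) and was not tested.

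In TPM, mice of a group varied more in how much globin RNA they had than in its balance. TPM also moves with the share of small RNAs, which cancels in a ratio. In FL-WT vs. GC-WT the limma SE of the single globins was 0.16 to 0.18, and 0.11 to 0.13 without the 5 small RNAs. The pooled within-group SD on the log2 scale was 0.29 for the alpha sum, 0.32 for the beta sum and 0.15 for their ratio. It was 0.03 for the ratio of the alpha copies and 0.06 for the ratio of the beta copies. The spread of the alpha to beta ratio itself was 0.17 for GC-WT, 0.22 for FL-WT, 0.11 for GC-KO and 0.05 for FL-KO on that scale.

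**Figure D3:**
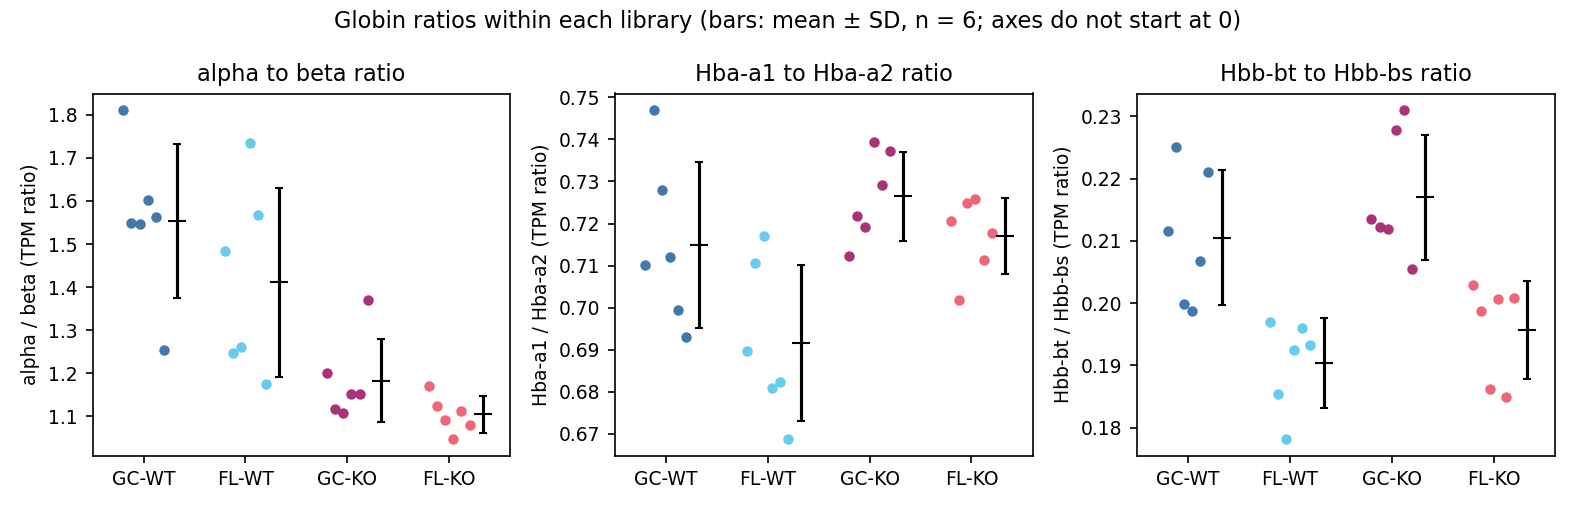
TPM ratios within each library (y axes, not from 0) for each mouse (points) in the 4 groups (x axis), with bars for the mean ± SD of 6 mice. The alpha to beta ratio is lower in Nrf2-KO mice, and the Hbb-bt to Hbb-bs ratio is lower in each flight group than in its ground group, with no overlap.

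Between the beta copies, flight shifted the balance by a small amount in both genotypes. Hbb-bt RNA was 0.199 to 0.225 of Hbb-bs in GC-WT mice (median 0.209) and 0.178 to 0.197 in FL-WT mice (median 0.193). In Nrf2-KO mice the ratio was 0.205 to 0.231 on the ground (median 0.213) and 0.185 to 0.203 in flight (median 0.2). Flight and ground mice did not overlap in either genotype. The log2 difference was -0.14 (SE 0.04) in FL-WT vs. GC-WT and -0.15 (SE 0.04) in FL-KO vs. GC-KO, so that the ratio fell by 9.54% in WT and fell by 9.80% in Nrf2-KO mice (adjusted p = 0.00618 for both, exact two-sided permutation test, whose smallest unadjusted p here is 0.00216). After removal of those trends the differences were -0.13 and -0.14 (adjusted p = 0.0144 and 0.00618, exact permutation test). Flight and ground mice then overlapped in WT, with 5 of 6 FL-WT mice below the lowest GC-WT mouse. All 6 FL-KO mice stayed below the lowest GC-KO mouse. Genotype gave differences of 0.04 on the ground and 0.04 in flight (adjusted p = 0.297 and 0.276, exact permutation test). The part that the sharing of reads between near-identical copies has in these ratios was not tested.

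The balance of the alpha copies moved little before the GC content and length trends were removed. Hba-a1 was 0.693 to 0.747 of Hba-a2 in GC-WT (median 0.711), 0.669 to 0.717 in FL-WT (median 0.686), 0.712 to 0.739 in GC-KO (median 0.726) and 0.702 to 0.726 in FL-KO mice (median 0.719). Neither flight comparison passed, at -0.05 (adjusted p = 0.0866) in WT and -0.02 (adjusted p = 0.173) in Nrf2-KO mice by exact permutation tests. In FL-KO vs. FL-WT the ratio was 3.70% higher (log2 difference 0.05, SE 0.02, adjusted p = 0.0325, exact permutation test). That call was lost in 6 of the 12 runs that each left out 1 library (adjusted p up to 0.0566, exact permutation test). The ground difference between genotypes was 0.02 (adjusted p = 0.255, exact permutation test). After removal of those trends the genotype difference was 0.12 on the ground and 0.15 in flight (adjusted p = 0.00618 for both, exact permutation test). All 6 Nrf2-KO mice were then above every WT mouse, on the ground and in flight.

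Relative to a list of haem biosynthesis enzymes, globin RNA stood about 2-fold higher in flight. On the TPM scale this mostly restates the lower enzymes, whose median log2 fold changes were -0.98 in WT and -1.03 in Nrf2-KO mice. The list was chosen with earlier results of these data known, so the p-values of this ratio are not independent support. For the ratio, the summed globin TPM was divided by the geometric mean TPM of 8 haem biosynthesis enzymes. It was 1699 to 2568 in GC-WT (median 1969) and 3158 to 4880 in FL-WT mice (median 4408). In Nrf2-KO mice it was 2328 to 3236 on the ground (median 2692) and 4115 to 6077 in flight (median 5451). All 6 flight mice were above every ground mouse of their genotype. The log2 difference was 1.01 (SE 0.13) in FL-WT vs. GC-WT, 2.02-fold, and 0.99 (SE 0.11) in FL-KO vs. GC-KO, 1.99-fold (adjusted p = 0.00618 for both, exact permutation test). Against Alas2 alone, the erythroid enzyme that starts haem synthesis, the log2 differences were smaller, 0.30 in WT and 0.39 in Nrf2-KO mice (adjusted p = 0.00618 for both, exact permutation test).

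Against 12 genes of the red cell membrane and its skeleton, a list also chosen with earlier results known, the shift was larger. The ratio was 2086 to 3990 in GC-WT (median 2374), 4781 to 7748 in FL-WT (median 6777), 3255 to 4958 in GC-KO (median 4076) and 7629 to 11647 in FL-KO mice (median 9502). Flight and ground mice again did not overlap. It was 2.50-fold higher in FL-WT vs. GC-WT (log2 difference 1.32, SE 0.18) and 2.41-fold higher in FL-KO vs. GC-KO (1.27, SE 0.15), with an adjusted p of 0.00618 for both by the exact permutation test. The interaction estimates were -0.02 (SE 0.18) for the enzymes and -0.06 (SE 0.23) for the membrane genes, and were not tested. The lists hold longer transcripts than the globins, with a median of 1792 nt for the enzymes and 4982 nt for the membrane genes. After removal of those trends the differences were 0.77 and 0.76 for the enzymes and 0.94 and 0.89 for the membrane genes, in WT and Nrf2-KO mice, with an adjusted p of 0.00618 in each exact permutation test.

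**Figure D4:**
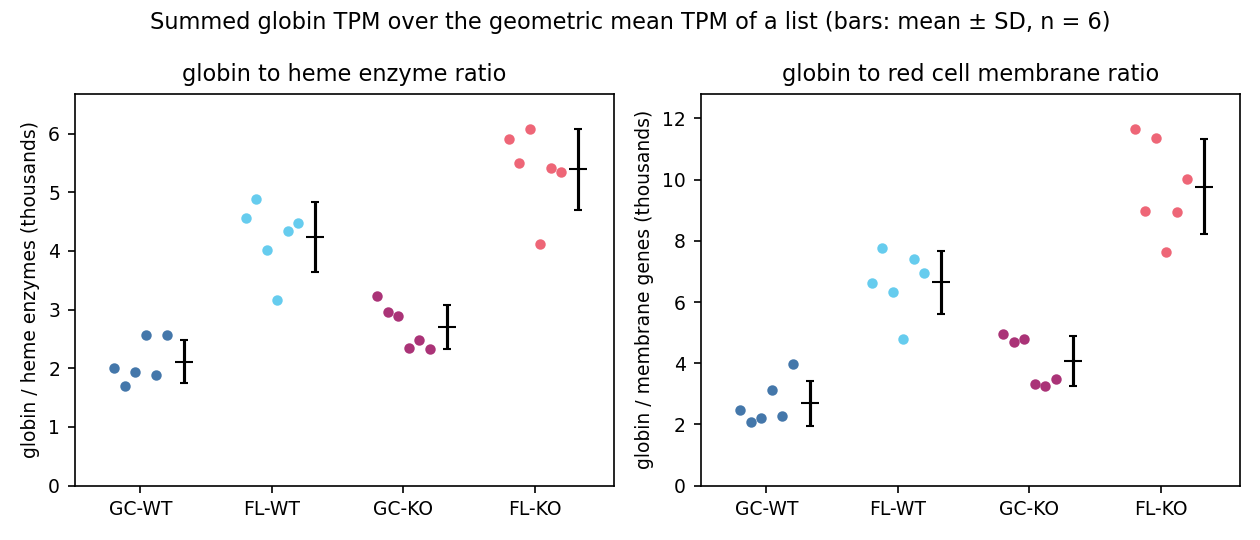
Summed globin TPM divided by the geometric mean TPM of 8 haem enzymes (left) or 12 red cell membrane genes (right), divided by 1000 (y axes, from 0), for each mouse (points) in the 4 groups (x axis), with bars for the mean ± SD of 6 mice. Both ratios are higher in every flight mouse than in any ground mouse of the same genotype.

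Genotype also moved these ratios. The ratio to haem enzymes was 1.29-fold higher in Nrf2-KO mice on the ground (adjusted p = 0.0333) and 1.27-fold higher in flight (adjusted p = 0.0275), and the ratio to membrane genes 1.53-fold (adjusted p = 0.0275) and 1.47-fold (adjusted p = 0.00962), by exact permutation tests. None of these 4 held after removal of those trends, where the log2 differences lay between -0.07 and 0.00. Against Alas2 alone the genotype differences were 0.00 on the ground and 0.08 in flight, and neither passed.

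In bulk marrow, fewer cells of a type and less RNA per cell cannot be told apart, which bears on each list below. In FL-WT vs. GC-WT, 3 of 8 haem biosynthesis genes and 10 of 12 membrane genes were DEGs and lower, against 0.938% of tested genes. For Nrf2-KO mice, 5 of 8 and 10 of 12 were, against 2.13%, and no gene of either list was a DEG in the other direction. Cpox and Alad, enzymes of the middle steps of the pathway, were at log2 -1.14 and -1.02 in WT mice, and Cpox, Ppox and Alad at -1.45, -1.22 and -1.19 in Nrf2-KO mice. Of the membrane genes, Sptb (beta spectrin) and Ank1 (ankyrin) were at -1.45 and -1.39 in WT mice, and Slc4a1, the band 3 anion exchanger, led in Nrf2-KO mice at -1.78. The list medians were -0.98 and -1.16 in WT mice and -1.03 and -1.28 in Nrf2-KO mice, against -0.24 and -0.29 for all genes. Under median-of-ratios scaling the DEGs fell to 0 and 2 in WT mice and 1 and 3 in Nrf2-KO mice, with list medians of -0.64 and -0.82, and -0.61 and -0.87. Over all 12373 tested genes the lower DEGs fell as well, from 116 to 16 in WT and from 264 to 22 in Nrf2-KO mice.

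**Figure D5:**
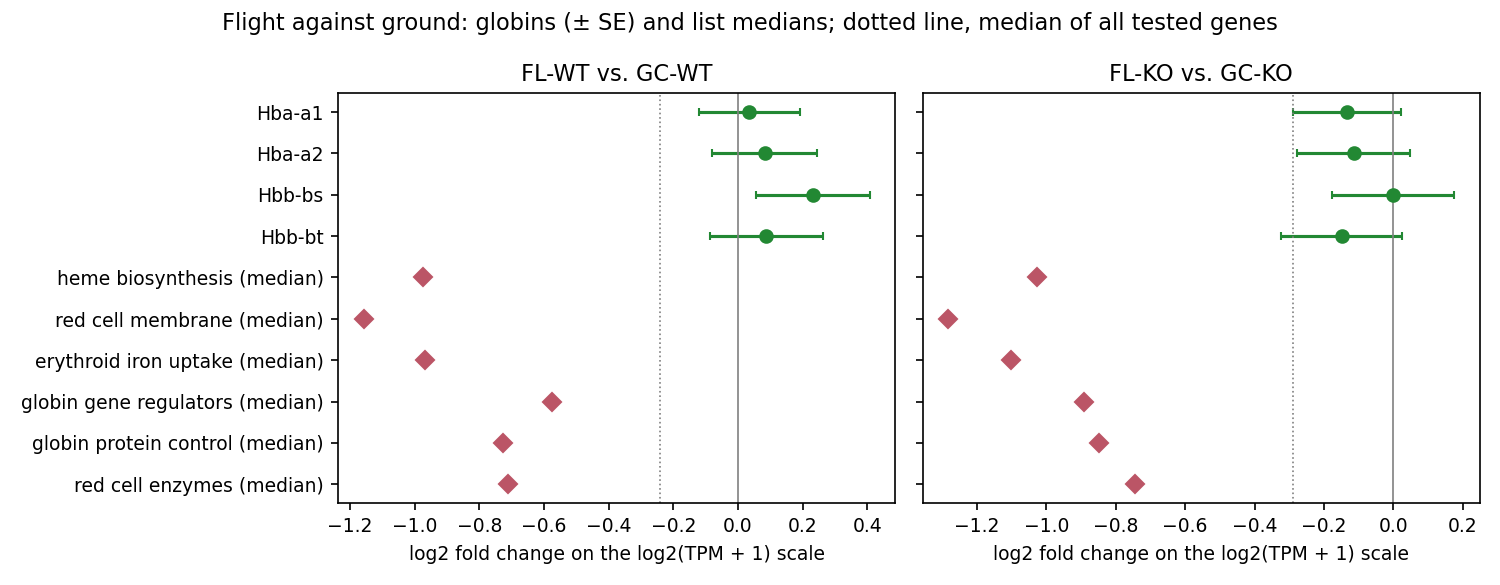
Log2 fold change on the log2(TPM + 1) scale (x axis) of flight against ground in WT (left) and Nrf2-KO mice (right), for the 4 adult globins (points with SE) and the medians of 6 lists (diamonds), with the median of all tested genes as a dotted line. The globins lie between -0.15 and 0.23 and the list medians between -1.28 and -0.57.

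Of 12 genes that control globin transcription, 2 were DEGs and lower in FL-WT vs. GC-WT, against 0.938% of tested genes. They were Zfpm1, the Gata1 cofactor FOG-1 (-1.18), and Sox6, a repressor of embryonic globin (-1.18). In FL-KO vs. GC-KO 5 of 12 were, against 2.13% of tested genes, led by Zfpm1 (-1.94), Klf1, the activator of adult beta globin (-1.5), Tal1 (-1.20) and Gata1 (-1.15). Between genotypes, 0 of 12 were DEGs on the ground (3.04% of tested genes were lower DEGs), where Zfpm1 was at -0.99, and 3 of 12 in flight (8.36%), namely Zfpm1 (-1.75), Zbtb7a (-1.29) and Klf1 (-1.02). No regulator was a DEG in the direction of higher expression in any of the 4 comparisons. Under median-of-ratios scaling the lower DEGs were 0, 2, 0 and 1 of 12 in the order FL-WT, FL-KO, ground and flight genotype, and after removal of the GC content and length trends 0 in each. Over all 12373 tested genes, in the same order, they were 16, 22, 62 and 381 under that scaling and 45, 17, 76 and 97 after trend removal.

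The list for control of globin protein held 8 genes, not all of which act on globin itself. Of these, 1 was a DEG and lower in FL-WT vs. GC-WT, against 0.938% of tested genes, the erythroid ubiquitin ligase Trim58 (-1.12). In FL-KO vs. GC-KO 4 were, against 2.13%, namely Ube2o (-1.79), Trim58 (-1.13), the autophagy kinase Ulk1 (-1.09) and Eif2ak1 (-1.08). In FL-KO vs. FL-WT, 2 of 8 were, Ube2o (-1.92) and Ulk1 (-1.10), against 8.36% of tested genes, and in GC-KO vs. GC-WT 0 of 8, against 3.04%, with Ube2o at -0.99. Of 7 genes of iron uptake, 3 were DEGs and lower in WT flight mice, against 0.938% of tested genes. They were the mitochondrial iron importer Slc25a37 (-1.20), Abcb10 (-1.11) and the transferrin receptor Tfrc (-1.04). In Nrf2-KO flight mice 5 of 7 were, against 2.13%, and 0 of 7 between genotypes on the ground or in flight. Of 7 red cell enzymes and erythroid proteins, 1 was a DEG in each flight comparison, Hemgn (-1.34 and -1.13), against 0.938% and 2.13% of tested genes. Catalase, Cat, was the 1 DEG in GC-KO vs. GC-WT (-1.06), against 3.04%. With median-of-ratios scaling, the lower DEGs among the 8 protein control genes numbered 0, 1, 0 and 1 in the order FL-WT, FL-KO, ground and flight genotype, and those of the iron uptake genes and of the red cell enzymes 0 in each. After removal of the GC content and length trends they were 0 in each comparison for the 3 lists, except for 1 red cell enzyme gene in FL-WT vs. GC-WT. The lower DEGs over all tested genes in these settings are those given above with the regulators.

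The other globin genes were low. Hba-x, Hbb-y, Hbb-bh1 and Hbb-bh2, of embryonic or fetal type, reached at most 0.51 TPM in any library and were not tested. The theta-like genes Hbq1a and Hbq1b were tested. In WT mice Hbq1b ran from 20.25 to 42.86 TPM on the ground and from 11.80 to 21.17 TPM in flight, and in Nrf2-KO mice from 29.66 to 49.44 and from 15.04 to 25.56 TPM. Flight and ground mice overlapped slightly in WT and not in Nrf2-KO, with log2 differences of -0.87 (SE 0.18, limma adjusted p = 0.00109) and -0.84 (SE 0.18, limma adjusted p = 0.000936), whereas Hbq1a was at 0.40 and 0.07 (adjusted p = 0.195 and 0.821 from limma).

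The 5 genes whose log2(TPM + 1) followed log2 of the summed globin TPM most closely over the 24 libraries, of 5021 genes at 5 TPM or more on average, were Fam220a (Pearson r = 0.95), Hbq1a (0.87), Bnip3l (0.85), Alas2 (0.83) and Ube2b (0.81). The part of TPM taken by small RNAs moves all genes of a library together, so these values are a description. Alas2 was at 309 to 803 TPM in GC-WT (median 693), 406 to 729 TPM in FL-WT (median 543), 658 to 964 TPM in GC-KO (median 781) and 446 to 745 TPM in FL-KO mice (median 573).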

How the data were processed

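RNA of bone marrow cells was sequenced from 24 mice, 6 per group. The deposited file holds TPM values for 54752 genes, made by the authors with STAR 2.6.1 and RSEM 1.3.1 on mm10 (GRCm38). No read counts were used, so depth is unknown. Symbols came from GENCODE M21 (54723 identifiers matched).

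Genes with TPM above 1 in at least 1 library (12373) were tested with limma 3.58.1 (R 4.3.3) on log2(TPM + 1), with 1 mean per group over all 24 libraries. Fold changes are on that scale. Ratios within a library were compared by exact two-sided permutation tests over mice, adjusted over 20 tests and called at an adjusted p under 0.05. The 4 further tests planned, on Ahsp, could not be run. Named genes were the members, at most the 4 genes of each pathway list with the largest absolute change in a comparison, and the 5 genes most like the summed globins. Some genes of the lists are counted but not reported by name here. Alternatives were other scalings, filters and pseudocounts, a replicate block and leaving out each library. Members and lists were chosen with earlier results of these data known. Removing trends with GC content and length (a local regression per library) was chosen after seeing the data. The scripts were tested on simulated data. The labels do not say that mice of equal number in flight and ground groups were related, so no block was used, and p-values measure the spread between mice.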

Additional observations from a re-analysis of the deposited data

Results flagged for a closer look

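With 48 groups of values examined (4 genes, 3 sums and 5 ratios in 4 groups), chance alone flags about 1 in 20. In GC-KO mice, the alpha to beta ratio of mouse 12 was 1.37, far above the others, which ran from 1.11 to 1.20. In FL-KO mice, the ratio of globin to haem enzymes was 4115 in mouse 09, below the others, which ran from 5349 to 6077. Both were single samples far from the rest of their group.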

How the results depend on the processing

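The count of globins called stayed at 0 in each of 5 comparisons (4 between groups and the interaction) under the scalings, filters, pseudocounts, replicate block and left-out libraries run, and rose to 2 between genotypes on the ground and 1 between genotypes in flight with no minimum fold change. Values that follow are log2 differences, and the cause of a move was not tested.

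Fold changes of single globins changed sign where they were near 0. For flight in Nrf2-KO mice, Hba-a1, Hba-a2, Hbb-bs and Hbb-bt were at 0.31, 0.32, 0.44 and 0.29 under median-of-ratios scaling and at 0.049, 0.068, 0.18 and 0.033 without the 5 small RNAs, and Hba-a1, Hba-a2 and Hbb-bs at 0.095, 0.072 and 0.099 after trend removal. Hba-a2 between genotypes in flight was at 0.43, 0.073 and 0.12 under these 3 settings. Quantile normalization gives every library the same set of values, so these abundant genes move there only by their rank. Under it Hba-a2 was at -0.043 for flight in WT mice and -0.13 between genotypes on the ground, and Hba-a1 at -0.10 between genotypes in flight. The interaction was 0.036 for Hba-a1 and 0.0075 for Hba-a2 without the small RNAs, and 0.031 for Hba-a1 after trend removal. Leaving out single libraries gave ranges of -0.13 to 0.095 for Hba-a1, -0.10 to 0.15 for Hba-a2 and -0.072 to 0.21 for Hbb-bt for flight in WT mice, -0.081 to 0.071 for Hbb-bs for flight in Nrf2-KO mice, and -0.020 to 0.11 for Hba-a1 and -0.081 to 0.054 for Hba-a2 between genotypes in flight.

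After trend removal the alpha to beta ratio was at 0.0075 for flight in Nrf2-KO mice and -0.16 between genotypes in flight, and Hba-a1 to Hba-a2 at 0.023 for flight in Nrf2-KO mice and 0.12 between genotypes on the ground. Between genotypes on the ground and in flight, globin to haem enzymes was then at -0.058 and -0.069 and globin to membrane genes at -0.0030 and -0.053. With Alas2 alone in place of the enzymes these were -0.0022 and 0.085. By the rank sum, globin to haem enzymes between genotypes on the ground kept its difference of 0.37 with an adjusted p of 0.0999 (exact permutation test). Leaving out single libraries gave -0.11 to -0.053 for alpha to beta for flight in Nrf2-KO mice. For Hba-a1 to Hba-a2 it gave -0.058 to -0.035 for flight in WT mice, 0.015 to 0.036 between genotypes on the ground and 0.043 to 0.063 in flight. For globin to haem enzymes it gave 0.31 to 0.43 and 0.27 to 0.42 between genotypes on the ground and in flight.

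Mice shared only a number between ground and flight. Their deviations correlated above 0.1 in 6 of 12 pairs (r from -0.051 to 0.40), and 4 of 12 flight libraries were closest to the ground library of their own number. With the number as a replicate block (exact sign-flip permutation test, smallest p 0.0313), Hba-a1 to Hba-a2 for flight in WT mice, at -0.048, passed (adjusted p = 0.0446). The replicate block changed no other call.

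Precision is limited by 6 mice per group and by TPM values without read numbers, and single-copy values by reads shared between the copies.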
